A study of Solanum lycopersicum with 9 samples.

Results

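A set of 54 genes, of 23028 listed in guard cells of tomato (Solanum lycopersicum), was selected for transcript levels that were highest in a DELLA loss-of-function line, intermediate in the parent cultivar M82 and lowest in a line with a gain of DELLA function. Selection required that neighbouring groups did not overlap, that each step reached 1.25 times and that the mean in the loss-of-function line reached 50 normalized counts, after some identifiers had been left out. DELLA proteins sit in the nucleus and hold back the responses to gibberellin, a plant growth hormone whose receptor, once occupied, targets them for degradation. Tomato has a single DELLA gene, PROCERA. Guard cells flank the stomatal pore in pairs and set water loss and carbon dioxide uptake by swelling and shrinking.

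The series asks how DELLA bears on the response of tomato to lack of water. All 3 groups have the M82 background, which carries the sp mutation, and grew in the same room with 12 hours each of light and dark at 25°C; the labels name no drought treatment. The group pro has a DELLA loss-of-function mutation, the group pro17 (pro∆17) expresses a gain-of-function DELLA, and M82 is the unmodified cultivar. Leaf blades stripped of veins were blended in water and the epidermal peels kept on a mesh were sequenced as polyadenylated RNA, with 3 libraries per genotype. The titles of pro17 libraries 2 and 3 carry other numbers after the delta sign, and the genotype label was followed. The labels do not give the promoter that drives the gain-of-function DELLA, the number of independent lines, or whether libraries of the same genotype represent different plants, so that spread between libraries may be technical. The DELLA gene itself was not analysed here.

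Between 14826561 and 20445679 reads per library were assigned to the listed genes, with 4.35% to 7.28% of the reads in the 10 leading genes, the highest share being that of pro library 3. The deposited files pair no gene name with an identifier, and the reference table used here matched 0 of the 23028 identifiers. Members are therefore given by locus identifier, in which the digits after Solyc are the chromosome number, and no function is ascribed to them. For the same reason the labelled cell type could not be checked against marker genes, and gene groups such as gibberellin metabolism could not be counted. In RNA of a whole peel, fewer cells of a type and less RNA per cell cannot be told apart.

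The members were selected on their normalized counts in these same 9 libraries, that is, reads scaled for library depth and not for transcript length. A member had its lowest pro library above its highest M82 library, its lowest M82 library above its highest pro17 library, a mean in pro at least 1.25 times that in M82, a mean in M82 at least 1.25 times that in pro17, and a mean in pro of at least 50. Identifiers of chromosome 11 and 3 other identifiers were left out, together 1573 genes, 2 of which met the rule, which left 21455. Of these, 15732 reached the minimum mean in pro, so the members were 0.343% of the genes that could have met every condition. The mirrored rule, with the lowest values in pro and the highest in pro17, was met by 153 genes. All 54 members passed the filter on low counts that kept 20951 of the listed genes for testing.

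Separation of pro from M82 was the condition that most often decided membership. It alone was missed by 180 genes, whereas 17 genes missed only the separation of M82 from pro17, 20 missed only the step from M82 to pro, 20 missed only the step from pro17 to M82 and 12 missed only the minimum mean. Without any minimum on the steps, 140 genes met the rule, and with a minimum step of 1.5 times 23 did.

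Across the members, the median ratio of the pro mean to the M82 mean was 1.64 (range 1.25 to 5.48) and the median ratio of the M82 mean to the pro17 mean was 1.66 (range 1.25 to 5.25). The rule set the lower end of both ranges. From pro17 to pro the median ratio was 2.99, from 1.58 to 23.8. The larger of both steps lay between M82 and pro in 28 members and between pro17 and M82 in 26. Both steps were at least 2 times in 7 members, at least 1.5 times in 23, and both were below 1.5 times in 14. The module therefore held both small and large differences. By group means the larger step fell almost evenly on either side of M82. By ratios of group medians it lay between M82 and pro in 20 members, and by means without pro library 3 in 13.

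**Figure D1:**
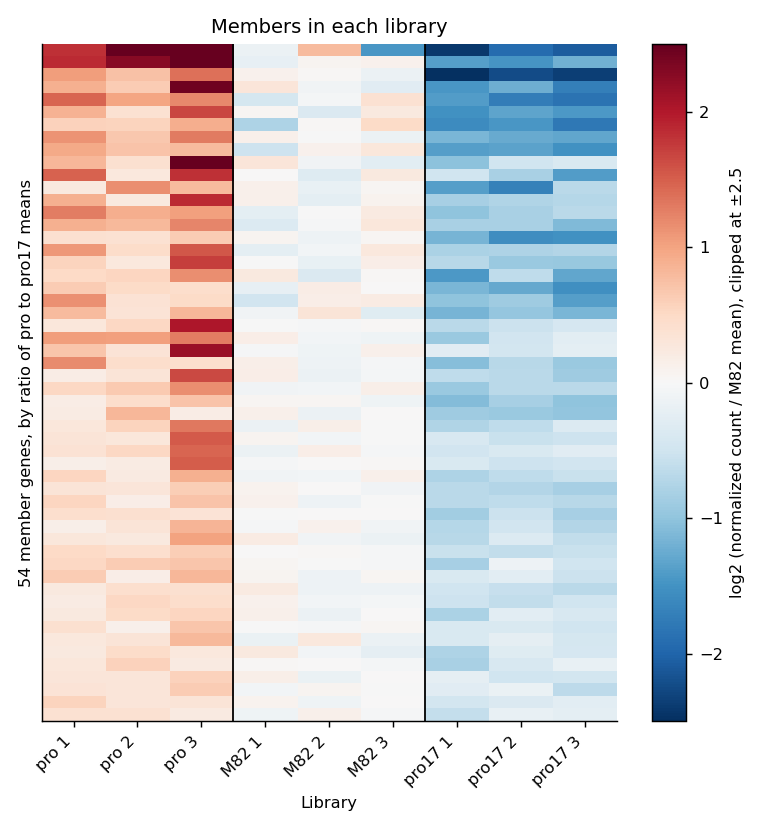
Each of the 54 members (1 per line of the grid) in each of the 9 libraries (columns), as log2 of its normalized count over its M82 mean, ordered by the ratio of the pro mean to the pro17 mean; colours stop at a log2 value of 2.5 in either direction. Separation between groups is a result of how members were selected; pro library 3 is the highest pro library in 38 members.

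The members covered a wide range of counts. The mean over the 9 libraries had a median of 432.6 normalized counts over the members, against 445.5 over the 15732 genes at the minimum mean in pro. It was under 100 in 10 members, the lowest being 22.7, and reached 134806 in the highest. The spread within groups was not low in pro: over the members, the median SD of log2 values was 0.32 for pro, 0.15 for M82 and 0.14 for pro17, beside 0.36, 0.21 and 0.14 over all genes tested. The median SD of the members among the M82 libraries was thus below that of all genes tested. These genes include some under the minimum mean in pro and had a median mean of 300.5. The rule itself confined the M82 values to the range between the other groups.

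The highest ratios of the lowest pro library to the highest pro17 library were found in a pair of members with low counts. Solyc12g038510 had 36.0, 71.2 and 60.0 normalized counts in pro libraries 1 to 3, 9.14, 17.7 and 3.69 in M82 and 1.92, 2.69 and 2.41 in pro17. Its lowest pro library lay 13.4 times above its highest pro17 library, and its means were 55.7 ± 18.0, 10.2 ± 7.04 and 2.34 ± 0.39 (SD, n = 3 each). The M82 libraries of this gene spread widely, and its pro17 values amounted to only a few reads each. Solyc01g108800 had 80.95, 107.7 and 127.3 normalized counts in pro, 19.4, 23.6 and 23.99 in M82 and 8.63, 8.08 and 9.65 in pro17. The M82 and pro17 libraries lay close together and the pro libraries further apart (105.3 ± 23.2, SD, n = 3). The pro17 values of this gene also rest on few reads each, so nothing is read from their closeness. The pro mean was 4.72 times the M82 mean and the M82 mean 2.54 times the pro17 mean.

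In the 2 members with most reads, pro library 3 lay far above the other pro libraries. Solyc10g075100 had 168053, 136907 and 378239 normalized counts in pro libraries 1 to 3, 112513, 100502 and 128062 in M82 and 70073, 60025 and 58876 in pro17. The pro mean was 2.003 times the M82 mean, and 1.34 times without pro library 3; the M82 mean was 1.80 times the pro17 mean. It was the most abundant or second most abundant gene by reads in each pro library, ranked 2, 4 and 1 in M82, and ranked 6, 8 and 11 in pro17. Solyc07g049440 had 12986, 8238 and 25534 normalized counts in pro, 7604, 5863 and 7440 in M82 and 3934, 4139 and 4234 in pro17. Its pro17 libraries lay close together, while pro library 3 was 2.41 times the mean of the other pro libraries. The member next in mean, Solyc12g011010, did not share this: its pro libraries had 15423, 13128 and 13775 normalized counts.

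Solyc10g075100 took most of the reads of the module. Its share of all reads was 0.93%, 0.697% and 2.06% in pro libraries 1 to 3, 0.595%, 0.539% and 0.722% in M82 and 0.383%, 0.342% and 0.329% in pro17. The other 53 members together took 0.542%, 0.459% and 0.766% in pro, 0.351%, 0.355% and 0.392% in M82 and 0.219%, 0.242% and 0.230% in pro17. In both sets of shares the order of the groups comes from the selection, since the rule required it of each member. Pro library 3 was the highest of all, and the pro17 libraries lay closest to each other.

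Among members with both steps of at least 2 times, 2 had the most equal steps. Solyc06g008580 had 547.6, 404.2 and 619.2 normalized counts in pro, 277.6, 252.2 and 228.8 in M82 and 115.1, 106.0 and 102.6 in pro17. The means, 523.7 ± 109, 252.9 ± 24.4 and 107.9 ± 6.47 (SD, n = 3 each), were 2.07 times apart at the pro step and 2.34 times at the pro17 step. Solyc03g116260 had 58.0, 48.4 and 168.5 normalized counts in pro, 38.8, 29.4 and 25.8 in M82 and 11.5, 13.5 and 9.65 in pro17. Its steps of 2.92 and 2.72 times look alike, but without pro library 3 the pro mean was only 1.70 times the M82 mean.

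**Figure D2:**
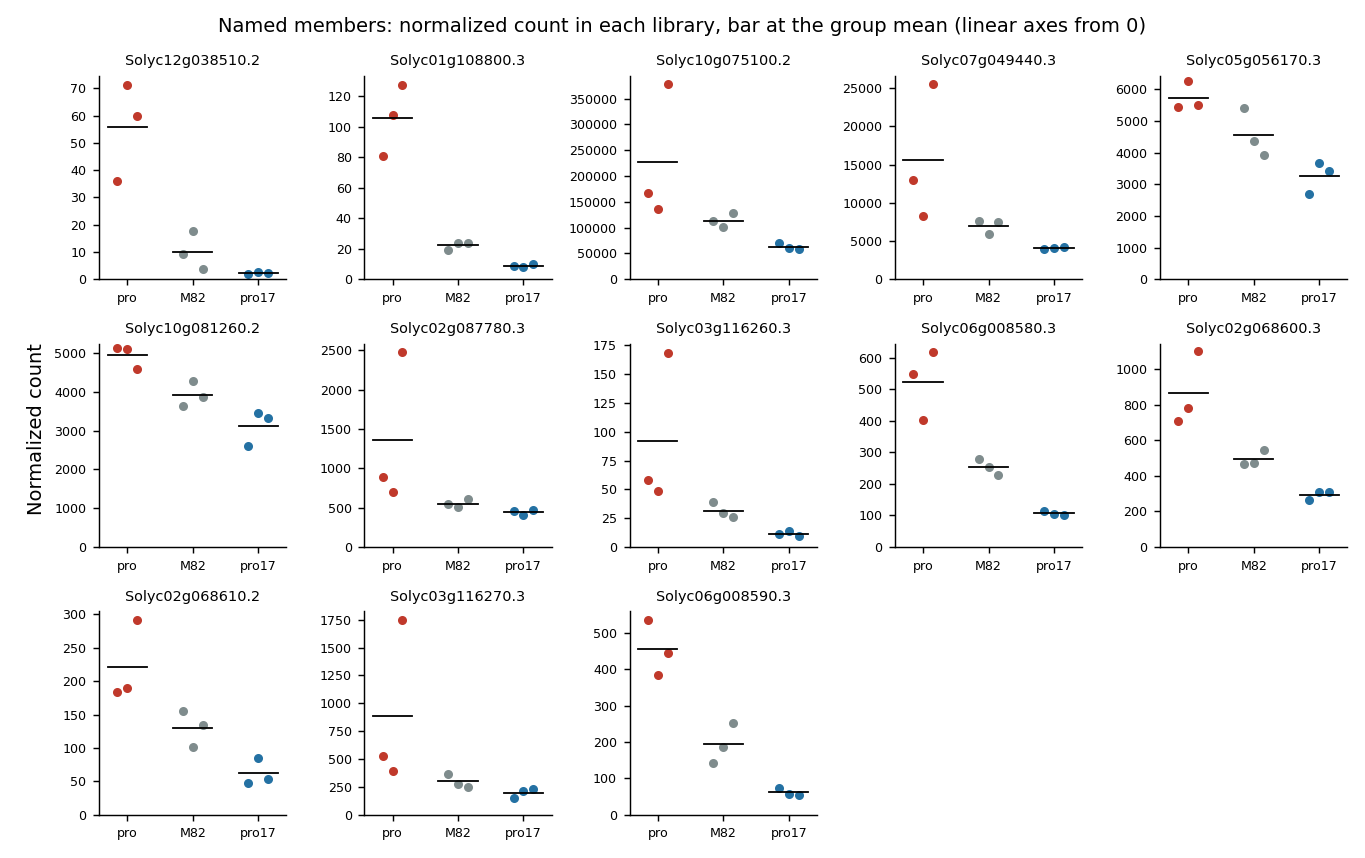
Normalized counts (linear axes from 0, a separate scale for each gene) of 13 members in each library, with points left to right for libraries 1 to 3 of pro, M82 and pro17 and a bar at each group mean. In Solyc10g075100, Solyc07g049440, Solyc02g087780, Solyc03g116260 and Solyc03g116270, pro library 3 stands above the other pro libraries, whereas in Solyc06g008590 pro library 1 is highest.

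At the edge of the rule stood members with small steps. Solyc05g056170 had 5439, 6253 and 5508 normalized counts in pro, 5401, 4380 and 3938 in M82 and 2686, 3685 and 3435 in pro17. Its highest M82 library almost reached its lowest pro library, and the pro mean was 1.25 times the M82 mean. Solyc10g081260 had 5121, 5113 and 4598 normalized counts in pro, 3627, 4294 and 3858 in M82 and 2612, 3445 and 3326 in pro17, with both steps at 1.26 times. Solyc02g087780, nearest the limit at the pro17 step, had 893.4, 699.8 and 2479 normalized counts in pro, 540.4, 509.3 and 605.3 in M82 and 451.7, 402.4 and 468.2 in pro17. Its M82 mean was 1.25 times its pro17 mean. Its pro mean was 2.46 times its M82 mean, and 1.44 times without pro library 3.

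Genes just outside the rule looked much the same. Solyc10g083210 and Solyc06g006000 missed the pro step, at 1.246 and 1.243 times. Solyc05g008070 and Solyc04g051340 missed the pro17 step, both at 1.236 times. Solyc04g051340 had 1182, 950.8 and 1017 normalized counts in pro, 851.1, 771.3 and 884.0 in M82 and 684.8, 659.4 and 684.2 in pro17, with groups that did not overlap. The list is thus a slice of a continuous range of ratios, and its edge separates genes of almost equal pattern.

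**Figure D3:**
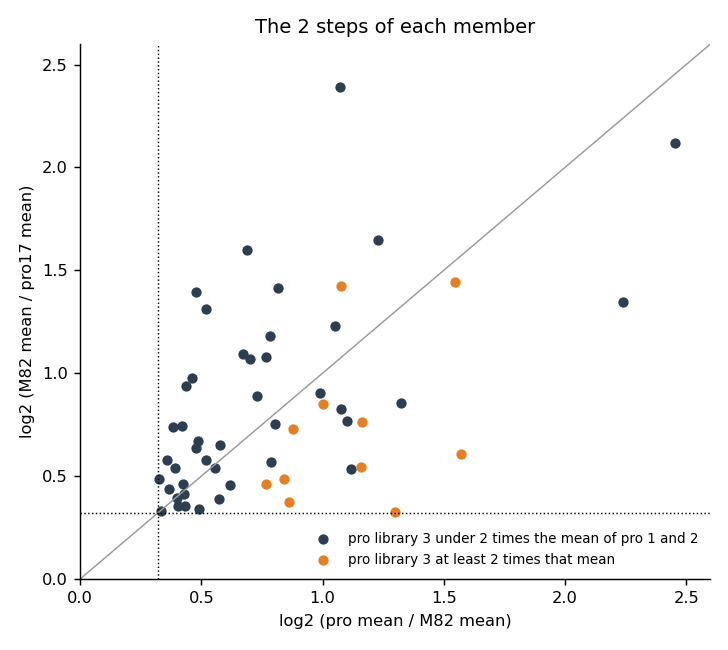
Log2 ratio of the pro to the M82 mean (horizontal) against log2 ratio of the M82 to the pro17 mean (vertical) for each of the 54 members; dotted lines mark the minimum step of 1.25 times and the grey line equal steps. Of the 11 members in orange, whose pro library 3 was at least 2 times the mean of the other pro libraries, 10 lie on the side of the larger pro step. Of the other 43 members, 18 do. Library 3 is part of the pro mean, so a high value in it moves a member towards that side.

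The order of libraries within a group was not a condition of the rule, but it is not independent of it, since the pro mean and the separation from M82 were computed with each pro library. Pro library 3 was the highest pro library in 38 members (70.4%), library 1 in 9 and library 2 in 7. Among the 15732 genes at the minimum mean in pro, library 3 was highest in 42.7% and lowest in 41.4%. Pro library 2 was the lowest pro library in 29 members (53.7%, against 40.3%), which means that it most often decided the separation from M82. In M82, library 1 was highest in 26 members (48.2%, against 33.0%). In pro17, library 2 was highest in 23 members (42.6%, against 29.9%) and library 1 lowest in 25 (46.3%, against 35.6%). Library 3 was thus an extreme of its group in most genes, and selection for high pro values favours genes in which it is the high one, so the share among members is a description of the list and nothing is read from its excess over other genes.

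As a median over the members, pro libraries 1, 2 and 3 lay at 1.43, 1.34 and 1.83 times the M82 mean of the gene, and pro17 libraries 1, 2 and 3 at 0.577, 0.643 and 0.621 times. The M82 libraries lay at 1.02, 0.962 and 1.002 times. Over the genes at the minimum mean in pro, the same medians ran from 0.974 to 1.01 in the 9 libraries. Read against the M82 library of the same number, the medians over the members were 1.41, 1.41 and 1.77 in pro and 0.571, 0.679 and 0.610 in pro17.

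In 11 members (20.4%), pro library 3 was at least 2 times the mean of the other pro libraries, beside 1053 (6.69%) of the genes at the minimum mean in pro. The rule used library 3 in the pro mean, so that selection favours a high ratio and the share of unselected genes is not what the members would show without a change. The ratio had a median of 1.28 over the members, a range of 0.739 to 3.76, and a median of 0.9999 over the genes at the minimum mean. The highest ratio was that of Solyc03g116270, with 531.6, 395.4 and 1745 normalized counts in pro, 367.9, 280.7 and 251.0 in M82 and 146.7, 212.9 and 230.5 in pro17. Solyc06g036290 had 467.7, 486.3 and 1194 normalized counts in pro libraries 1 to 3 and was named, like the next members, after its values were seen. It failed the rule without pro library 3, as did Solyc09g083050 and Solyc05g015490 among these 11 and 7 of the other 43 members. Solyc12g044320 is the only one of the 7 members with both steps of at least 2 times, besides Solyc03g116260, that belongs to these 11.

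Without pro library 3 the picture of the steps changed. The median ratio of the pro mean to the M82 mean fell from 1.64 to 1.37, 10 members dropped below the minimum step, and the larger step lay between M82 and pro in 13 members in place of 28. What distinguishes pro library 3 from its group, and its part in these ratios, was not tested.

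**Figure D4:**
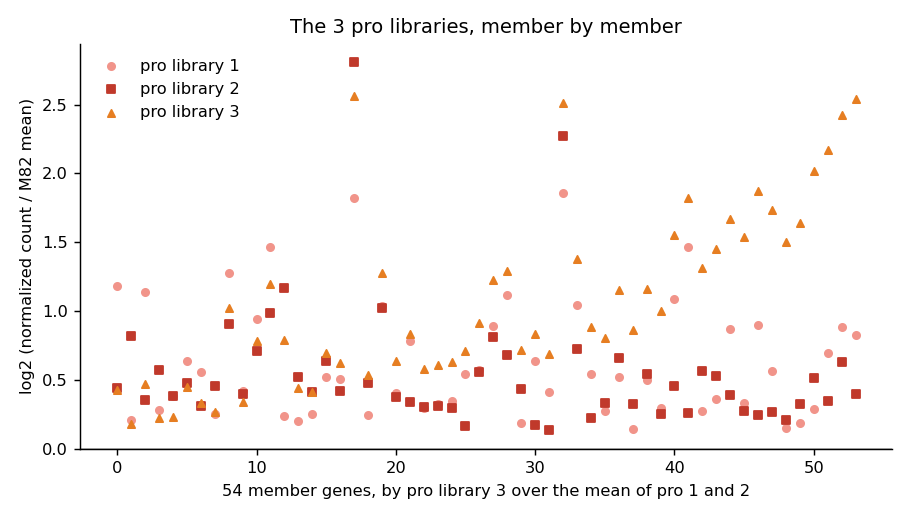
Log2 of the normalized count over the M82 mean in pro library 1 (circles), library 2 (squares) and library 3 (triangles) for each of the 54 members, ordered by the ratio of pro library 3 to the mean of the other pro libraries. Towards the right, library 3 pulls away from libraries 1 and 2; in the 12 members at the left it lies below their mean.

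Whether the pattern carried to a library that took no part in the choice was examined by applying the rule to 8 libraries and reading the remaining one. When a pro17 library was left out, most of the genes chosen had it below every M82 library: 50 of 55 (90.9%) for library 1, 56 of 64 (87.5%) for library 2 and 53 of 69 (76.8%) for library 3. Over the genes at the minimum mean the same shares were 22.9%, 27.6% and 26.3%. The left-out pro17 libraries lay at a median of 0.587, 0.665 and 0.683 times the M82 mean, close to the 0.626, 0.634 and 0.636 times of the libraries used in the choice.

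For pro the libraries differed. Of 77 genes chosen without pro library 1, 54 (70.1%) had that library above every M82 library, against 29.7% of the genes at the minimum mean. Of 196 genes chosen without library 2, only 55 (28.1%) did, against 28.2% of the background, and of 129 chosen without library 3, 48 (37.2%) did, against 39.7%. Left-out libraries 1, 2 and 3 lay at a median of 1.22, 0.990 and 0.888 times the M82 mean, where the pro libraries used in the choice lay at 1.64, 1.67 and 1.46 times. When left out, pro libraries 2 and 3 were therefore above every M82 library no more often than in the background. Left-out pro17 libraries lay below every M82 library in more of the chosen genes than in the background. In both cases the M82 libraries that the left-out library was read against had taken part in the choice, so the shares over all genes at the minimum mean are not those of genes without a difference, and the shares are given as a description.

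Left-out M82 libraries fell between the other groups in 57 of 90 (63.3%), 53 of 69 (76.8%) and 53 of 90 (58.9%) of the genes chosen without them, against 3.03%, 4.28% and 3.64% of the genes at the minimum mean. These shares are not comparable with those of pro and pro17, because lying between both outer groups is another condition than lying beyond M82.

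**Figure D5:**
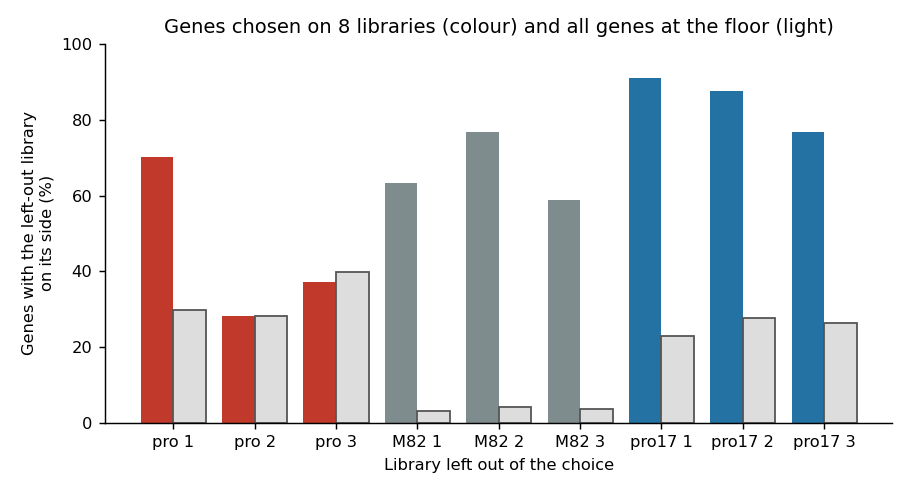
Share of genes (%, axis from 0) in which a left-out library lay on the side of its group (above every M82 library for pro, between the other groups for M82, below every M82 library for pro17), for genes chosen on the other 8 libraries (colour) and for genes at the minimum mean in pro (light). The share is 28.1% against 28.2% for pro library 2 and 90.9% against 22.9% for pro17 library 1.

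Leaving out a library from the rule also showed which members were near its limits. Between 44 and 53 of the 54 members still met it, fewest without pro library 3 and most without pro17 library 2; leaving out a library cannot remove a separation, so each loss came from a mean. Under all 9 omissions 31 members met the rule, 14 lost it in 1 and 9 in more. Solyc10g081260, with both steps at 1.26 times, met it in 3 of 9, the fewest of the 54.

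The module was then set beside tests over all genes. Since the rule used these contrasts, the counts are no support for the pattern. They describe how many members passed with 3 libraries a group and the spread of each gene estimated over all 9 libraries. In limma, with Benjamini-Hochberg adjustment over 20951 genes and a threshold of 0.05, 1 member was higher in pro than in M82, against 0.0764% of all genes, and 3 members were lower in pro17 than in M82, against 0.0382%. Between the outer groups, 45 members were lower in pro17 than in pro, against 1.21% of all genes. No member passed in the other direction. With only the 6 libraries compared in each fit, counted in either direction, 0 members and 23 genes passed between pro and M82. Between pro17 and M82, 24 members and 436 genes passed, and between pro17 and pro 27 members and 273 genes. The limma counts thus depended on which libraries entered the estimate of spread, and the reason was not tested. The median log2 fold change over the members was 0.68 for pro over M82, -0.73 for pro17 over M82 and -1.44 for pro17 over pro, where the medians of all genes were within 0.01 of 0. The first 2 contrasts share the M82 libraries, so a high or low M82 value moves both.

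DESeq2, a model of the read counts themselves, passed more members. It called 12 members higher in pro than in M82, against 0.266% of 22537 genes with an adjusted p-value, 20 lower in pro17 than in M82, against 0.63%, and 53 lower in pro17 than in pro, against 3.84%. At both steps it called 7 genes of all, or 0.0311%, and each was a member: Solyc01g008420, Solyc02g068600, Solyc05g054490, Solyc06g008580, Solyc06g008590, Solyc07g008360 and Solyc12g011010. Limma called 0 genes at both steps. With limma 41 members passed only between pro17 and pro, and with DESeq2 28 did.

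The member that passed in limma between pro and M82 was Solyc01g108800, described above. The 3 that passed between pro17 and M82 were Solyc07g006700, Solyc07g008360 and Solyc12g088220, named after their values were seen. With the replicate number as a block, Solyc07g008360 and Solyc12g088220 passed and Solyc07g006700 did not. Solyc07g008360 had 227.8, 182.8 and 287.7 normalized counts in pro, 118.8, 112.8 and 100.6 in M82 and 18.2, 23.4 and 21.7 in pro17. Its M82 mean was 5.25 times its pro17 mean, the largest lower step of the 54 members. Solyc07g006700 had 489.7, 438.8 and 429.3 normalized counts in pro, 271.9, 357.2 and 317.4 in M82 and 142.9, 130.3 and 108.6 in pro17. Solyc12g088220 had 1137, 1119 and 1342 normalized counts in pro, 897.9, 791.9 and 894.1 in M82 and 386.5, 294.6 and 301.7 in pro17. In all 3 the step from pro17 to M82 exceeded the step from M82 to pro, and the pro17 libraries lay far from the others.

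Among the genes that DESeq2 called at both steps, Solyc05g054490 had the smallest SD relative to the mean in M82 and in pro17, with 4452, 4202 and 4824 normalized counts in pro, 3152, 3190 and 3076 in M82 and 2129, 2052 and 2129 in pro17. Its steps, 1.43 and 1.49 times, were small and nearly equal. Solyc12g011010, with the pro values given above, had 5626, 8613 and 9792 normalized counts in M82 and 3079, 3149 and 2802 in pro17. Its M82 libraries spread more than those of either outer group. Solyc01g008420 had 326.8, 252.0 and 274.2 normalized counts in pro, 113.1, 133.5 and 157.8 in M82 and 67.1, 76.4 and 84.5 in pro17, with steps of 2.11 and 1.77 times.

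Between pro17 and pro, 9 members did not pass in limma. They were Solyc02g087780, Solyc02g088530, Solyc03g116270, Solyc04g078660, Solyc05g015490, Solyc06g036290, Solyc08g067530, Solyc09g083050 and Solyc10g075100. Of these, 7 are among the 11 members with pro library 3 at least 2 times the other pro libraries. Solyc02g088530, which DESeq2 did not call either, had 57.0, 59.3 and 82.5 normalized counts in pro, 42.3, 56.9 and 42.5 in M82 and 36.4, 40.4 and 35.0 in pro17, so that M82 library 2 lay just below pro library 1.

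Whether the steps of a gene differ in size was tested as the contrast of the upper step minus the lower step. In limma 0 members passed, against 0.0907% of all genes in either direction. The contrast had a median of -0.03 on the log2 scale over the members. Equal steps are not shown by this: the standard error was 0.32 for Solyc01g008420, whose contrast was 0.26.

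By chromosome number, members came from 11 of the 12 chromosomes, chromosome 11 having been left out. They numbered 7 each on chromosomes 5 and 6, 6 each on 4 and 12, 5 each on 2, 3, 7 and 10, 4 on 1 and 2 each on 8 and 9. As a share of the genes at the minimum mean in pro this ran from 0.163% on chromosome 8 to 0.608% on chromosome 5. Identifiers with the number 0, of which 104 reached the minimum mean, held 0 members. There were 3 pairs of consecutive listed identifiers, which held 6 members, so that 11.1% of the members had a member next to them in the list, against 0.553% of the genes at the minimum mean.

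The pair on chromosome 2 consisted of Solyc02g068600 and Solyc02g068610. Solyc02g068600 had 708.5, 781.8 and 1102 normalized counts in pro, 466.1, 472.0 and 546.3 in M82 and 261.8, 309.0 and 310.1 in pro17. Solyc02g068610 had 183.9, 189.8 and 292.1 in pro, 155.4, 102.1 and 133.8 in M82 and 48.0, 84.4 and 53.1 in pro17. Both were highest in pro library 3, with a pro step of 1.75 and 1.70 times. The pair on chromosome 6 was Solyc06g008580, described above, and Solyc06g008590, with 535.6, 385.5 and 445.4 normalized counts in pro, 143.9, 187.4 and 251.9 in M82 and 73.9, 58.4 and 54.3 in pro17. In pro library 2 both were lowest, but in M82 they ran in opposite orders over the libraries.

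The pair on chromosome 3, Solyc03g116260 and Solyc03g116270, had the highest ratios of pro library 3 to the other pro libraries, 3.17 and 3.76. In M82 both were highest in library 1 and lowest in library 3. Whether the genes of a pair are near-identical copies or overlap cannot be told apart from a shared pattern here, since neither the annotation nor the strand setting of the counting is given in the sources used here.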

How the data were processed

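Guard-cell RNA of 3 genotypes was measured in 9 libraries, grouped by the genotype label. The authors' deposited table gives signal values, headed normalized counts per the file headers, with log2 fold changes and p-values of 3 comparisons. The submitters' processing notes list DESeq2, HTSeq, STAR (version 2.4.2a) and cutadapt; the genome build, annotation and strand setting were not given in the sources used here. Whole reads could be recovered, since 100% of the values were multiples of what 1 read is worth in their library (tolerance 0.006). Such reads carry no molecular identifiers and may include copies of one molecule. The authors' deposited log2 fold changes and p-values were not used for members, for a reason given among the other observations.

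The rule was applied to the deposited normalized counts as described. Limma 3.58.1 (R 4.3.3) with a mean-variance trend was run on log2 of the normalized count plus a pseudocount of 1, all 9 libraries and 3 groups in one fit, on 20951 genes that passed edgeR's expression filter (2077 left out), adjusted by Benjamini-Hochberg at 0.05. Fold changes on that scale understate changes of low genes. Alternatives were DESeq2 1.42.0 and edgeR 4.0.16 on the recovered reads, pseudocounts of 0.1 and 5, no filter, only the 6 libraries compared, a replicate block, other scalings and limits of the rule, and each library left out. On the recovered reads, edgeR with TMM called 38 genes between pro and M82, 17 between pro17 and M82 and 663 between pro17 and pro. Scripts were tested on simulated data.

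Members and lists were chosen with earlier results of these data known. Members were named, 2 by each criterion, for the highest ratio of the lowest pro to the highest pro17 library, the highest mean, the steps nearest the minimum, the most equal steps among those of at least 2 times, and consecutive identifiers, where 3 pairs tied and all were named. Lists by gene description and by cell type marker were void, as no identifier was annotated.

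Deviations of same-numbered libraries from their group means correlated across genes at 0.133, 0.503 and 0.523 between M82 and pro. All were above 0.1, so numbers were treated as pairing those samples. Deviations cancel out within a group, so these correlations depend on each other and do not establish a pairing. For number 1 the pairing is weak, since M82 library 1 correlated more with pro library 2 (0.259) than with pro library 1 (0.133). The pairing comes from the data, as the labels name no shared batch. The main fit did not use it, and the replicate block covered all 3 groups. Between pro17 and either group at least 1 correlation was under 0.1.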

Additional observations from a re-analysis of the deposited data

How the results depend on the processing

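The number of genes that met the rule was 54, and with TMM scaling 53 (51 shared), with upper-quartile scaling 49 (49 shared), with a minimum mean in pro of 20 or 200 it was 63 or 44, with a minimum step of 1.5 times 23, with no minimum step 140, and with 1 library left out 55 to 196. The highest counts came without pro library 2 (196) and pro library 3 (129), and 90 came without M82 library 1 or M82 library 3. With 1 library left out, the number of members with the larger step at pro ran from 13 (without pro library 3) to 28, and by ratios of group medians it was 20. By TMM scaling 39 members were highest in pro library 3.

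In limma 44 genes, 1 of them a member, passed between pro and M82, 25 genes and 3 members between pro17 and M82, and 712 genes and 45 members between pro17 and pro. With only the 6 libraries compared these became 23 and 0, 436 and 24, and 273 and 27. DESeq2 called 184 genes and 12 members, 314 and 20, and 1813 and 53. A pseudocount of 5 gave 41 genes and 6 members between pro17 and M82. With 1 library left out, the counts between pro and M82 ran from 25 to 766 genes and from 0 to 15 members, between pro17 and M82 from 1 to 199 genes and from 0 to 16 members, and between pro17 and pro from 161 to 3196 genes and from 23 to 53 members. Without pro library 2 the counts were 766 genes and 15 members between pro and M82, 88 and 9 between pro17 and M82, and 3196 and 53 between pro17 and pro. Without pro library 3, 199 genes and 16 members passed between pro17 and M82. The member called between pro and M82 was lost without M82 library 1, 2 or 3, and none was called between pro17 and M82 without M82 library 2, M82 library 3 or pro17 library 3. Without pro17 library 1, 2 or 3, the members called between pro17 and pro numbered 23, 25 and 24. The cause was not tested.

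With a replicate block, 34 genes passed between pro and M82, 12 between pro17 and M82 and 890 between pro17 and pro, with 1, 2 and 43 members. The same-numbered correlations were 0.175, 0.197 and 0.0675 between M82 and pro17. Between pro and pro17 they were 0.184, 0.056 and 0.0219. The numbers were therefore not taken to pair those samples. Each M82 library correlated best with the pro17 library of its own number, as did pro libraries 1 and 3. Pro library 2 correlated almost equally with pro17 library 2 (0.056) and pro17 library 3 (0.0566).

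For the 13 members named by the rule, the log2 ratio of pro to pro17 moved by less than 1 SD in all 104 combinations of member and setting. Leaving out 1 of 3 libraries moves a group mean by less than the SD of that group. For those settings the outcome was thus largely fixed in advance, and no stability is read from it. Where pro library 3 is high it also widens that SD. Without pro library 3 the log2 ratio went from 1.89 to 1.24 in Solyc03g116270, from 1.39 to 0.84 in Solyc02g087780 and from 2.67 to 2.12 in Solyc03g116260. Values under about 10 normalized counts, as in pro17 for Solyc12g038510 and Solyc01g108800, rest on a few reads each.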

Other observations

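For members that passed, fold changes in the authors' deposited table did not always match the normalized counts listed beside them. Among 21733 genes read in every library, the authors' deposited table differed from DESeq2 run on the recovered reads by more than 0.05 in log2 fold change for 96 genes between pro and M82 and for 147 between pro17 and M82, all of them among the 151 and 296 genes it called. Between pro17 and pro the difference exceeded 0.05 in 0 of 1715 called genes. Among the members this touched 8 of the 12 called between pro and M82 and 9 of the 20 called between pro17 and M82, and each of these 17 deposited values matched the DESeq2 value of another called gene within 0.001.

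For Solyc01g008420 the authors' deposited table gives a log2 fold change of 9.885 between pro and M82, where the recovered reads gave 1.073 and the normalized counts differed 2.11 times. For Solyc12g038510 the authors' deposited table gives 1.118, against 2.459 from the recovered reads. The recovered reads were derived from the normalized counts in the same lines, so the 2 agree by construction. Their agreement cannot show whether the counts stand beside the right identifier. The values of the members given above are the normalized counts as listed and use none of the deposited fold changes. The table also carries unnamed group means for M82 and pro17 in 81 lines, 10 of them members.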
